A study of Homo sapiens with 18 samples.

Results

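The genes described here act in ribosome biogenesis in the nucleolus. They were chosen by name: 41 symbols, of which 40 were found among the 57773 Ensembl gene identifiers of the deposited table, and BOP1 was not analysed here. By role, 4 belong to RNA polymerase I, 5 to the UTPA subcomplex, 4 to box C/D and U3 particles, 4 to box H/ACA particles and their chaperone, 8 to small subunit assembly, 10 (BOP1 included) to large subunit assembly, and 6 are other nucleolar proteins. RNA with a poly(A) tail was sequenced from RPE1 cells, a telomerase-immortalised human line from retinal pigment epithelium, with 18 libraries in 6 groups of 3 biological replicates. The groups were cytochalasin D 4N, cytochalasin D 2N, ZM447439 4N, ZM447439 2N, untreated 4N and untreated 2N cells. Cytochalasin D blocks actin polymerisation and so the division of the cell body, ZM447439 inhibits Aurora kinases, and 4N and 2N give the DNA content by which cells were sorted after Hoechst staining. All cells grew in 10% serum, the protocol gives ZM447439 at 2.5 µM for 24 h, its text is the same for every library, and no dose or time of cytochalasin D is given. A 4N sort can hold diploid cells in G2 or mitosis as well as tetraploid cells in G1, and a drug-treated 2N sort holds the cells that stayed at 2N.

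Ribosomes are built in the nucleolus, where RNA polymerase I copies the ribosomal DNA into a long precursor. The UTPA complex and the U3 particle bind that precursor as it emerges, box C/D and box H/ACA particles guide the chemical modification of its bases and sugars, and further factors fold, cut and export the small and the large subunit. Cells that grow and divide make many ribosomes, and many of these genes are known targets of the transcription factor MYC.

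The deposited values are RPKM, a read count scaled to the length of the gene and the size of the library, and they were found to be taken over the whole genomic span of a gene, introns included. The reads recovered per library were 49895547 to 78002810, and the members held 159 to 71435 reads per library. Within groups the libraries were not equally alike: over all tested genes the median absolute log2 difference was 0.151 and 0.159 between ZM447439 2N library 1 and the other libraries of its group, which differed from each other by 0.058. Libraries 1 of both sorts of cytochalasin D cells and of ZM447439 4N cells, and libraries 3 of both sorts of untreated cells, stood apart by the same measure. The untreated ones deviated from their group means in the opposite direction to the drug-treated ones. Deviations of untreated 2N library 3 had a correlation of -0.32 with those of ZM447439 2N library 1 and of 0.31 with those of library 2. Results are given without these 6 libraries where that changes them. Leaving out all 6 takes 1 library from each group and leaves untreated libraries 1 and 2 beside drug-treated libraries 2 and 3. Deviations of the former had correlations of -0.27 to -0.05 with those of the latter. Without the 6, a drug difference therefore cannot be told apart from this difference between libraries. The 6 were chosen from these same data for standing apart, so leaving out some or all tends to narrow the spread and lower the p-values. The label was checked with markers: KRT18 averaged 65.8, KRT8 7.77 and VIM 608 RPKM, and no blood cell marker exceeded 0.00525 RPKM in a library. Fibroblast markers of the same list were present too, with THY1 at 53.7 and COL1A1 at 7.02 RPKM on average. These markers alone do not settle the label. Of 7 pigment epithelium genes, RPE65, RLBP1, TYR, MITF and SERPINF1 averaged 0.00124 to 0.151 RPKM and OTX2 3.12, while BEST1 averaged 86.6 RPKM in unstranded reads that its antisense neighbour FTH1, which overlaps it in GENCODE 29, can share. RPKM are relative to the library, so they do not give RNA per cell, and fewer cells of a kind cannot be told apart from less RNA in each cell. The p-values measure the spread between these replicate libraries.

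Levels of different genes were compared per length of merged exons, as exon RPKM in untreated 2N cells (mean ± SD, n = 3). Nucleophosmin, NPM1, was the most abundant member at 242 ± 3.42, followed by nucleolin, NCL, at 116 ± 3.59. NOLC1 (63.1 ± 2.21), DDX21 (58.2 ± 3.28), FBL (51.9 ± 1.27) and NHP2 (47.2 ± 2.45) came next, and NOLC1 and DDX21 lay within their summed SD of each other. The helicase gene DDX10 was lowest at 2.70 ± 0.0980, close to UTP15 at 2.78 ± 0.0440. The most abundant members were thus the general nucleolar proteins and the modification particles, while the RNA polymerase I subunits POLR1A (5.48 ± 0.225), POLR1B (4.03 ± 0.134) and POLR1D (4.47 ± 0.210) were among the 6 lowest and POLR1C stood at 20.9 ± 0.551 exon RPKM.

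The first question was how these genes differed between drug-treated and untreated cells of the same DNA content. Nearly all of them were lower under both drugs in both sorts, and lower under cytochalasin D than under ZM447439. RPM are here reads scaled to the library size implied by the deposited values, which followed a TMM scaling factor between libraries, and not to gene length. Summed over the 40 members, 2031 to 2125 RPM fell on them in cytochalasin D 4N cells and 1982 to 2046 in cytochalasin D 2N cells. The sums were 2784 to 3162 in ZM447439 4N, 2453 to 2834 in ZM447439 2N, 4125 to 4309 in untreated 4N and 4474 to 4564 in untreated 2N cells. The ranges of the drug-treated groups did not overlap those of the untreated groups, and neither did the ranges of the drugs.

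**Figure D1:**
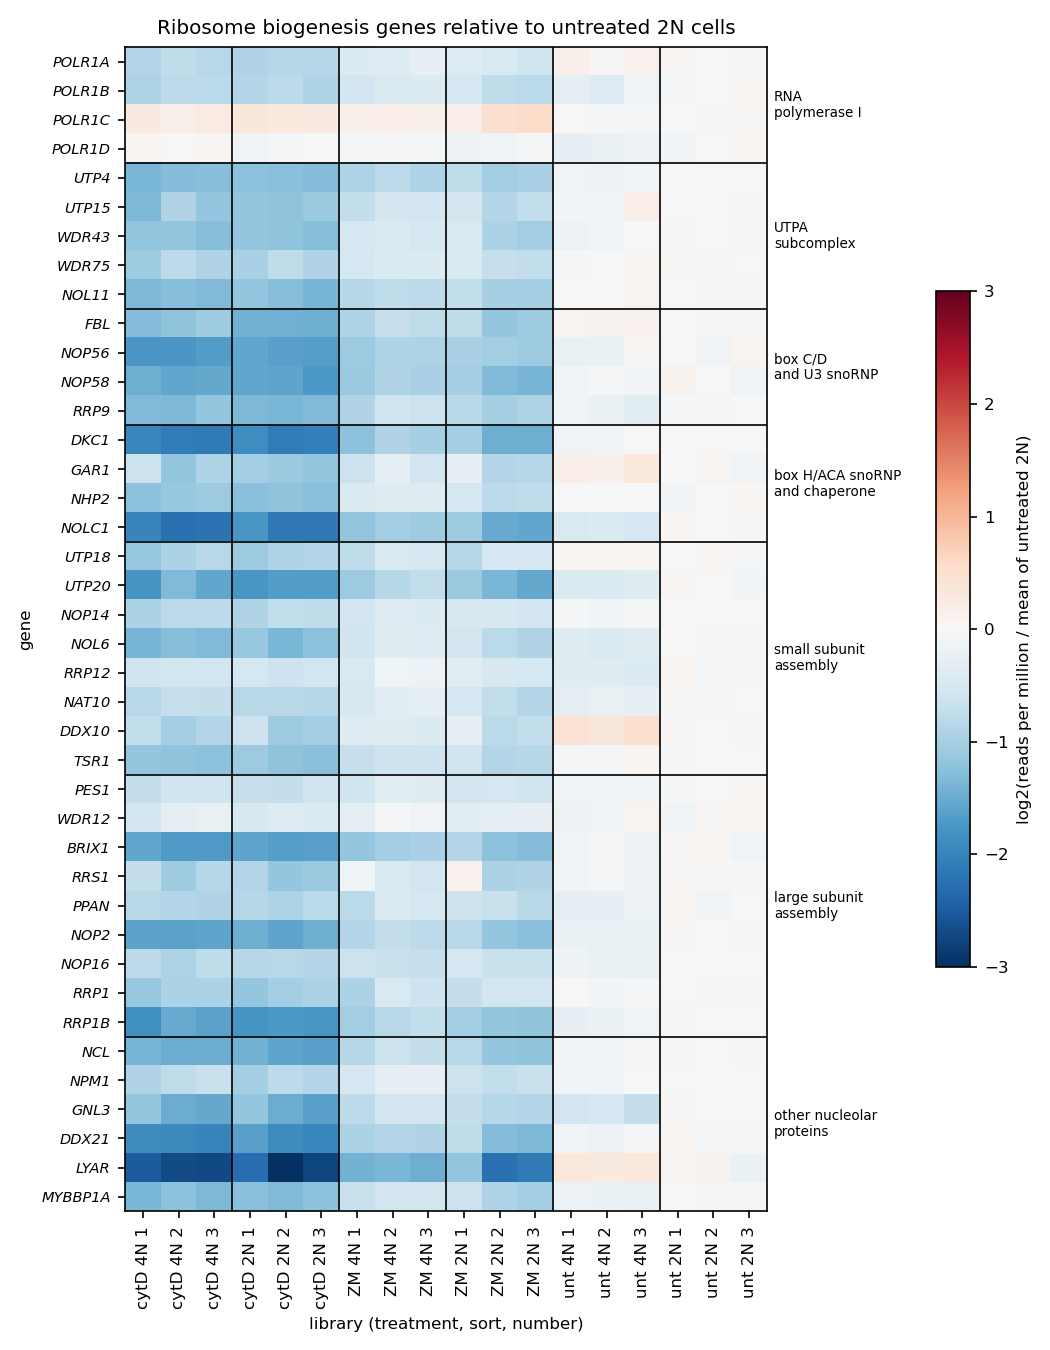
RPM of 40 ribosome biogenesis genes in 18 libraries as log2 of the ratio to the mean of the 3 untreated 2N libraries; rows are genes by role, columns are libraries by treatment (cytD, cytochalasin D; ZM, ZM447439; unt, untreated), sort and number, blue is lower and red higher. The cytochalasin D columns are the darkest, with LYAR at the low end, and POLR1C is the row that is red under both drugs.

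The test was limma on log2(RPKM + 0.5) for genes that averaged 0.5 RPKM or more, and a gene is said to rise or fall where the p adjusted over all 13037 tested genes was under 0.05. Of the 41 members, 35 passed this filter, and UTP4, UTP20, WDR12, DDX10 and LYAR did not. In cytochalasin D 4N against untreated 4N cells 33 of the 35 fell and 2 rose, where 44.4% of all tested genes fell and 26.1% rose. In cytochalasin D 2N against untreated 2N cells 33 fell and 1 rose, against 39.5% and 27.1% of all tested genes. In ZM447439 4N against untreated 4N cells 28 fell and 2 rose, against 35.5% and 19.6%. In ZM447439 2N against untreated 2N cells 33 fell and 1 rose, against 32.5% and 23.6%.

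The median log2 difference of the 35 was -0.76 for cytochalasin D 4N, where the median of all tested genes was -0.13, and -0.88 for cytochalasin D 2N, against -0.077. It was -0.39 for ZM447439 4N, against -0.072, and -0.65 for ZM447439 2N, against -0.038. Rescaling the libraries so that their median ratio was equal brought the all-gene median for cytochalasin D 4N to -0.0012, a shift over 0.1, and left 32 members lower and 2 higher there. The comparisons of both drugs within a sort share their untreated libraries. The counts by role that follow are parts of the counts above, to be read against the same shares of all tested genes.

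**Figure D2:**
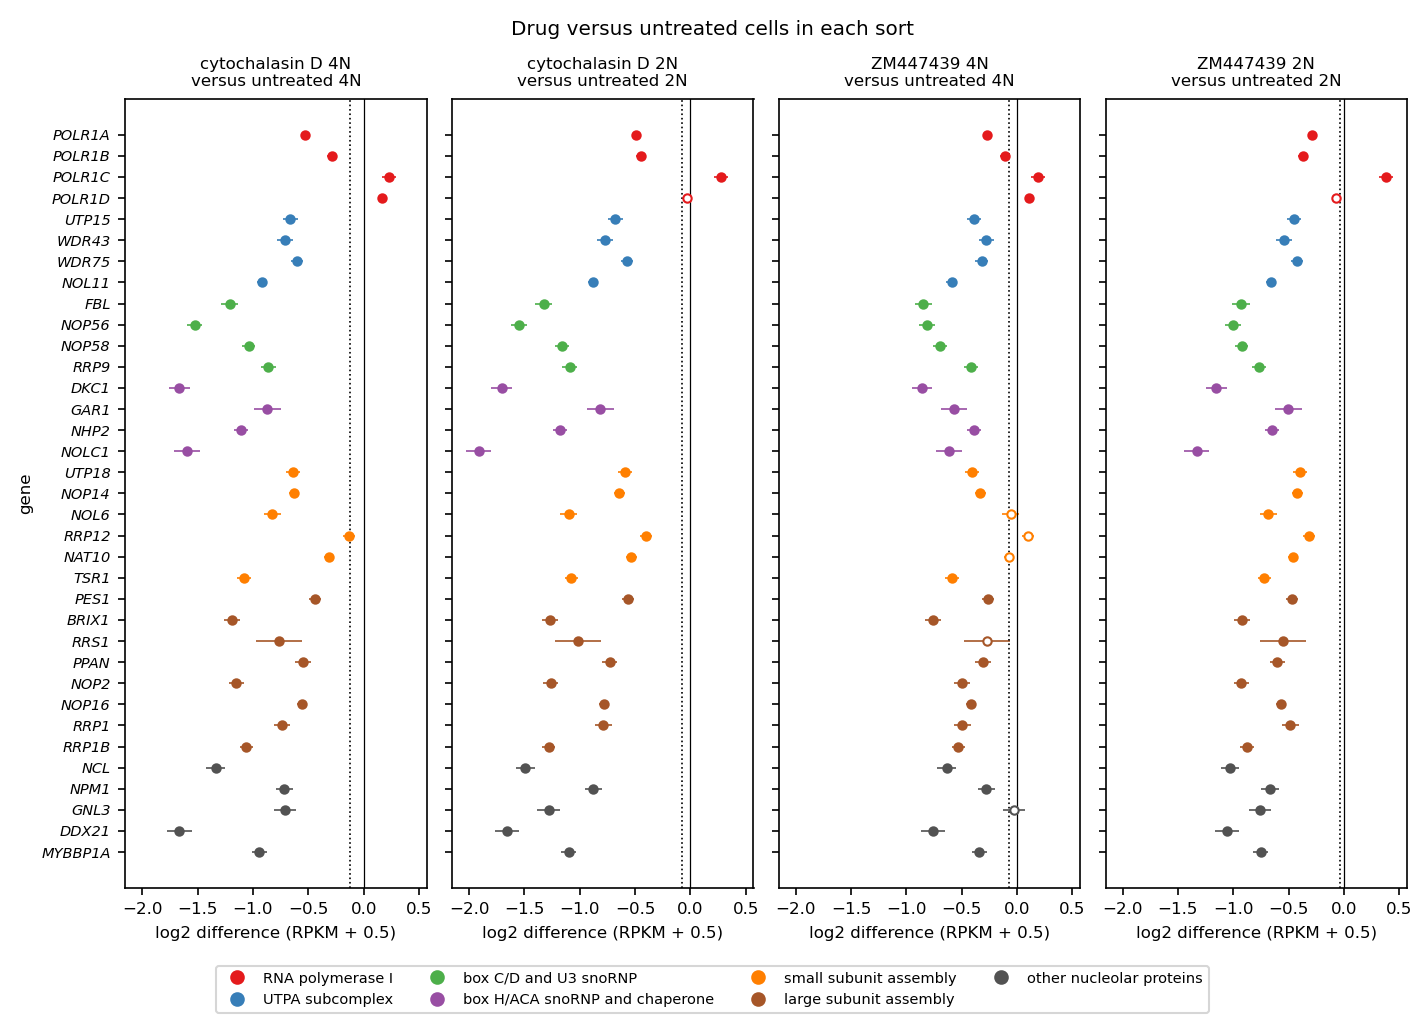
Log2 difference in RPKM + 0.5 (points, bars give the SE from limma) of the 35 tested members in 4 comparisons of drug-treated with untreated cells; colours give roles, filled points passed an adjusted p of 0.05, and the dotted line is the median of all tested genes. All filled points but those of POLR1C and POLR1D lie left of 0, and RRP12 in cytochalasin D 4N cells lies at the all-gene median.

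RNA polymerase I was the one role group whose members went both ways. POLR1A, its largest catalytic subunit, was at 0.467, 0.512 and 0.482 RPKM in the cytochalasin D 4N, 0.458, 0.473 and 0.480 in the cytochalasin D 2N, 0.652, 0.664 and 0.730 in the ZM447439 4N, 0.660, 0.625 and 0.572 in the ZM447439 2N, 0.951, 0.887 and 0.939 in the untreated 4N and 0.898, 0.859 and 0.828 in the untreated 2N libraries. The cytochalasin D libraries were the lowest and the untreated ones the highest, with no overlap between treatments in either sort. It fell by 0.53 on the log2(RPKM + 0.5) scale in cytochalasin D 4N (SE 0.038, adjusted p = 1.48e-08) and by 0.49 in cytochalasin D 2N cells (adjusted p = 4.64e-08). In ZM447439 4N cells its difference was -0.27 (SE 0.038, adjusted p = 3.39e-05). POLR1B, the other catalytic subunit, fell in all 4 comparisons, by 0.11 in ZM447439 4N to 0.45 in cytochalasin D 2N cells.

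POLR1C, a subunit that RNA polymerases I and III share, was the one member that rose in all 4 comparisons. It was at 7.07, 6.56 and 6.95 RPKM in the cytochalasin D 4N, 7.36, 7.15 and 7.03 in the cytochalasin D 2N, 6.58, 6.68 and 6.64 in the ZM447439 4N, 6.70, 8.16 and 8.50 in the ZM447439 2N, 5.90, 5.70 and 5.69 in the untreated 4N and 5.84, 5.67 and 5.98 in the untreated 2N libraries. Every drug-treated library lay above every untreated one. The log2 differences were 0.23 (SE 0.064, adjusted p = 0.00472) in cytochalasin D 4N, 0.28 (SE 0.064, adjusted p = 0.00141) in cytochalasin D 2N, 0.19 (SE 0.064, adjusted p = 0.0223) in ZM447439 4N and 0.38 (SE 0.064, adjusted p = 0.000148) in ZM447439 2N cells. The call in ZM447439 4N cells was lost without untreated 4N library 2 or 3 or ZM447439 4N library 2 or 3, with adjusted p of 0.0525 to 0.0609.

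Reads were counted without strand, and 18.2% of the exon bases annotated for POLR1C are also exon bases of other genes, among them YIPF3, XPO5 and LRRC73. YIPF3, looked up after the rise of POLR1C was seen, averaged 21.4 ± 0.874 RPKM in cytochalasin D 4N, 22.6 ± 0.765 in cytochalasin D 2N, 18.9 ± 0.182 in ZM447439 4N and 23.5 ± 4.16 in ZM447439 2N cells, against 13.2 ± 0.451 in untreated 4N and 13.0 ± 0.367 in untreated 2N cells (SD, n = 3). LRRC73 was also higher in each drug-treated group, with 0.596 ± 0.0756 RPKM in cytochalasin D 4N against 0.132 ± 0.00850 in untreated 4N cells, and XPO5 was lower, with 1.03 ± 0.0251 against 1.76 ± 0.0385. The part of these neighbours in the POLR1C values was not tested.

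POLR1D, the partner of POLR1C in both polymerases, was at 1.13, 1.07 and 1.12 RPKM in the cytochalasin D 4N, 1.01, 1.04 and 1.07 in the cytochalasin D 2N, 1.05, 1.03 and 1.04 in the ZM447439 4N, 0.971, 1.00 and 1.03 in the ZM447439 2N, 0.909, 0.919 and 0.948 in the untreated 4N and 1.02, 1.08 and 1.12 in the untreated 2N libraries. In the 4N sort all drug-treated libraries were above all untreated ones, and in the 2N sort the groups overlapped. POLR1D rose in cytochalasin D 4N cells by 0.17 (SE 0.033, adjusted p = 0.00034) and in ZM447439 4N cells by 0.11 (SE 0.033, adjusted p = 0.0124). In the 2N sort its differences were -0.033 (SE 0.033, adjusted p = 0.395) and -0.068 (SE 0.033, adjusted p = 0.0949). None of its annotated exon bases is shared with another gene. That check covers exons only, whereas the RPKM are taken over a genomic span with introns. The length behind the POLR1D values was inferred from the values and was not the annotated span. Overlap outside the exons, and the part of other genes in the POLR1D values, was not tested.

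The UTPA subcomplex, the first complex to join the precursor, fell as a group: each of its 4 tested members was lower in all 4 comparisons. NOL11 had both the highest RPKM and the largest difference. It was at 0.674, 0.705 and 0.691 RPKM in the cytochalasin D 4N, 0.754, 0.709 and 0.656 in the cytochalasin D 2N, 0.955, 1.02 and 0.997 in the ZM447439 4N, 1.02, 0.857 and 0.851 in the ZM447439 2N, 1.70, 1.72 and 1.82 in the untreated 4N and 1.75, 1.75 and 1.67 in the untreated 2N libraries. The cytochalasin D, ZM447439 and untreated libraries formed separate ranges in both sorts. Its log2 differences were -0.92 (SE 0.047, adjusted p = 4.43e-10) in cytochalasin D 4N, -0.88 (SE 0.047, adjusted p = 1.12e-09) in cytochalasin D 2N, -0.59 (SE 0.047, adjusted p = 1.28e-07) in ZM447439 4N and -0.66 (SE 0.047, adjusted p = 6.91e-08) in ZM447439 2N cells. UTP15, WDR43 and WDR75 had log2 differences of -0.71 to -0.60 in cytochalasin D 4N and -0.39 to -0.28 in ZM447439 4N cells.

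All 4 genes of the box C/D and U3 particles fell in all 4 comparisons, and they had the largest median fall of any role under ZM447439, -0.75 in 4N and -0.93 in 2N cells. These particles hold fibrillarin (FBL), which methylates ribose, its scaffold partners NOP56 and NOP58, and RRP9, a protein specific to the U3 particle. NOP56 was at 6.95, 6.92 and 7.33 RPKM in the cytochalasin D 4N, 7.94, 7.58 and 7.40 in the cytochalasin D 2N, 11.0, 12.4 and 12.4 in the ZM447439 4N, 11.9, 11.3 and 11.1 in the ZM447439 2N, 20.0, 20.3 and 23.9 in the untreated 4N and 23.6, 21.6 and 24.8 in the untreated 2N libraries. Its highest cytochalasin D library was below the lowest ZM447439 library, and its highest ZM447439 library was below the lowest untreated library. NOP56 had log2 differences of -1.53 (SE 0.071, adjusted p = 1.63e-10) in cytochalasin D 4N, -1.55 (SE 0.071, adjusted p = 2.53e-10) in cytochalasin D 2N, -0.81 (SE 0.071, adjusted p = 3.22e-07) in ZM447439 4N and -0.999 (SE 0.071, adjusted p = 6.3e-08) in ZM447439 2N cells.

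FBL was at 3.84, 4.08 and 4.48 RPKM in the cytochalasin D 4N, 3.45, 3.49 and 3.44 in the cytochalasin D 2N, 5.00, 5.82 and 5.57 in the ZM447439 4N, 5.56, 4.22 and 4.46 in the ZM447439 2N, 10.1, 10.2 and 10.3 in the untreated 4N and 9.55, 9.60 and 9.17 in the untreated 2N libraries. Every drug-treated library was below every untreated one. Its difference in ZM447439 4N cells, -0.85 (SE 0.080, adjusted p = 6.36e-07), was the second largest fall among the tested members there. NOP58 differed by -1.04 in cytochalasin D 4N and -0.70 in ZM447439 4N cells, and RRP9 by -0.86 and -0.42.

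The box H/ACA group showed the largest median fall under cytochalasin D, -1.35 in 4N and -1.44 in 2N cells. Dyskerin, DKC1, is the pseudouridine synthase of these particles, NHP2 and GAR1 are further core proteins, and NOLC1 is a chaperone that accompanies the particles in the nucleolus. DKC1 was at 1.53, 1.40 and 1.38 RPKM in the cytochalasin D 4N, 1.63, 1.39 and 1.43 in the cytochalasin D 2N, 2.54, 3.18 and 2.98 in the ZM447439 4N, 2.95, 2.15 and 2.16 in the ZM447439 2N, 5.54, 5.40 and 6.02 in the untreated 4N and 5.90, 5.96 and 5.99 in the untreated 2N libraries. The untreated libraries were all above 5.39, the ZM447439 libraries lay between 2.14 and 3.19, and the cytochalasin D libraries were all below 1.64 RPKM. Its log2 differences were -1.67 (SE 0.094, adjusted p = 1.11e-09) in cytochalasin D 4N, -1.70 (SE 0.094, adjusted p = 1.49e-09) in cytochalasin D 2N, -0.86 (SE 0.094, adjusted p = 3.05e-06) in ZM447439 4N and -1.15 (SE 0.094, adjusted p = 2.02e-07) in ZM447439 2N cells.

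NOLC1 was at 5.39, 4.57 and 4.59 RPKM in the cytochalasin D 4N, 6.39, 4.86 and 4.83 in the cytochalasin D 2N, 9.37, 10.5 and 10.2 in the ZM447439 4N, 10.1, 7.56 and 7.23 in the ZM447439 2N, 15.7, 16.1 and 15.1 in the untreated 4N and 22.2, 21.3 and 20.8 in the untreated 2N libraries. Treatments did not overlap in either sort, and the untreated 2N libraries were above the untreated 4N ones. NOLC1 differed by -1.60 (SE 0.12, adjusted p = 1.55e-08) in cytochalasin D 4N and by -1.91 (SE 0.12, adjusted p = 3.44e-09) in cytochalasin D 2N cells. In ZM447439 2N cells its difference was -1.33 (SE 0.12, adjusted p = 3.41e-07), against -0.62 in ZM447439 4N cells.

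NHP2 was at 6.74, 7.20 and 7.44 RPKM in the cytochalasin D 4N, 6.64, 6.86 and 6.63 in the cytochalasin D 2N, 11.6, 12.2 and 12.3 in the ZM447439 4N, 11.2, 9.16 and 9.39 in the ZM447439 2N, 15.8, 16.0 and 16.0 in the untreated 4N and 14.9, 16.0 and 16.5 in the untreated 2N libraries. All drug-treated libraries were below all untreated ones. Its difference was -1.11 in cytochalasin D 4N and -0.39 in ZM447439 4N cells, and both passed the test. With unstranded reads, 27.4% of its annotated exon bases are shared with RMND5B. GAR1 fell in all 4 comparisons, with differences from -0.87 in cytochalasin D 4N to -0.50 in ZM447439 2N cells.

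Of the genes for small subunit assembly, 6 were tested. All 6 fell under cytochalasin D in both sorts and under ZM447439 in 2N cells, and 3 of the 6 fell under ZM447439 in 4N cells. TSR1, a factor of late subunit maturation, was at 3.35, 3.22 and 3.18 RPKM in the cytochalasin D 4N, 3.48, 3.23 and 3.13 in the cytochalasin D 2N, 4.61, 4.82 and 4.88 in the ZM447439 4N, 4.89, 4.03 and 4.12 in the ZM447439 2N, 7.33, 7.16 and 7.80 in the untreated 4N and 7.32, 7.50 and 7.53 in the untreated 2N libraries. The drugs and the untreated cells formed separate ranges in both sorts. Its log2 differences were -1.08 (SE 0.060, adjusted p = 9.4e-10) in cytochalasin D 4N, -0.59 (SE 0.060, adjusted p = 1.45e-06) in ZM447439 4N and -0.72 (SE 0.060, adjusted p = 2.47e-07) in ZM447439 2N cells. With unstranded reads, 20.8% of its exon bases are shared with SGSM2 and SRR.

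NOL6, a component of the small subunit processome, had the largest fall of the 6 tested genes in cytochalasin D 2N cells, -1.10 (SE 0.078, adjusted p = 1.62e-08). In ZM447439 4N cells 3 genes did not pass the test: NOL6 differed by -0.060 (SE 0.078, adjusted p = 0.543), the export factor RRP12 by 0.097 (SE 0.054, adjusted p = 0.146) and NAT10, which acetylates ribosomal RNA, by -0.072 (SE 0.047, adjusted p = 0.215). RRP12 also had the smallest fall of the 35 in cytochalasin D 4N cells, -0.13 (SE 0.054, adjusted p = 0.0436). Rescaling moved that value to -0.020 and ended the call (adjusted p = 0.759), the block did the same (0.0562), and so did leaving out both cytochalasin D libraries numbered 1 (0.105) or both untreated libraries numbered 3 (0.0765). In ZM447439 4N cells RRP12 was called higher after rescaling (0.16, adjusted p = 0.0214) and without both ZM447439 libraries numbered 1 (0.17, adjusted p = 0.00204). NOP14 and UTP18 fell in all 4 comparisons, with differences of -0.64 to -0.33. With unstranded reads, 17.1% of the exon bases of NOP14 are shared with its antisense gene NOP14-AS1.

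For large subunit assembly, all 8 tested genes fell in 3 of the 4 comparisons, and 7 fell in ZM447439 4N cells. BRIX1, which takes part in early steps of the large subunit, was at 1.09, 0.992 and 0.994 RPKM in the cytochalasin D 4N, 1.07, 1.02 and 1.04 in the cytochalasin D 2N, 1.43, 1.58 and 1.64 in the ZM447439 4N, 1.75, 1.37 and 1.30 in the ZM447439 2N, 2.94, 3.14 and 2.85 in the untreated 4N and 3.28, 3.36 and 2.99 in the untreated 2N libraries. Drug-treated and untreated ranges were separate, and the cytochalasin D ranges were below the ZM447439 ranges. BRIX1 differed by -1.19 (SE 0.072, adjusted p = 2.27e-09) in cytochalasin D 4N and by -0.76 (SE 0.072, adjusted p = 6.67e-07) in ZM447439 4N cells. NOP2, a methyltransferase acting on large subunit RNA, differed by -0.93 (SE 0.069, adjusted p = 9.55e-08) in ZM447439 2N cells, and RRP1B, a nucleolar partner of protein phosphatase PP1, by -1.28 (SE 0.060, adjusted p = 3.21e-10) in cytochalasin D 2N cells.

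RRS1, which helps to bring a small ribosomal RNA into the large subunit, was at 13.9, 10.8 and 12.6 RPKM in the cytochalasin D 4N, 12.4, 10.2 and 10.4 in the cytochalasin D 2N, 20.9, 16.6 and 15.6 in the ZM447439 4N, 24.9, 11.8 and 12.2 in the ZM447439 2N, 21.6, 22.1 and 20.3 in the untreated 4N and 23.1, 23.2 and 21.7 in the untreated 2N libraries. ZM447439 2N library 1 was the highest of all 18, and ZM447439 4N library 1 lay inside the untreated 4N range, whereas the other ZM447439 libraries were below the untreated ones. RRS1 differed by -0.76 (SE 0.21, adjusted p = 0.00475) in cytochalasin D 4N, by -1.02 (SE 0.21, adjusted p = 0.000618) in cytochalasin D 2N and by -0.55 (SE 0.21, adjusted p = 0.0378) in ZM447439 2N cells. Its difference in ZM447439 4N cells, -0.27 (SE 0.21, adjusted p = 0.292), did not pass the test. Without both ZM447439 libraries numbered 1 it was -0.40 in ZM447439 4N (adjusted p = 0.00421) and -0.89 in ZM447439 2N cells (adjusted p = 6.85e-06), and the ZM447439 2N call was lost on rescaling (0.0681). Among the 8 tested genes, PES1, scaffold of the complex with BOP1 and WDR12, had the smallest difference in cytochalasin D 4N cells, -0.44, and differed by -0.27 in ZM447439 4N cells. RRP1, NOP16 and PPAN, further large subunit factors, had log2 differences of -0.74 to -0.55 in cytochalasin D 4N and -0.50 to -0.31 in ZM447439 4N cells. PPAN and NOP2 share 59.8% and 54.4% of their exon bases with other annotated genes, for PPAN a readthrough transcript with P2RY11, and their values may include reads of these. NOP16 shares 20.0% of its exon bases with ARL10 and HIGD2A, to which the same applies.

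All 5 tested genes of the other nucleolar proteins fell in 3 of the 4 comparisons, and all but GNL3 fell in ZM447439 4N cells. GNL3 differed by -0.028 (SE 0.10, adjusted p = 0.833) there and by -0.71 in cytochalasin D 4N cells. NPM1, a histone and ribosome chaperone, was at 20.5, 22.6 and 24.4 RPKM in the cytochalasin D 4N, 19.1, 22.3 and 21.0 in the cytochalasin D 2N, 27.2, 32.6 and 32.4 in the ZM447439 4N, 24.8, 23.2 and 24.3 in the ZM447439 2N, 36.0, 36.6 and 39.1 in the untreated 4N and 38.0, 38.6 and 39.1 in the untreated 2N libraries. All drug-treated libraries were below all untreated ones, and ZM447439 4N cells were nearest to the untreated level. NPM1 differed by -0.72 (SE 0.078, adjusted p = 1.1e-06) in cytochalasin D 4N and by -0.28 (SE 0.078, adjusted p = 0.00742) in ZM447439 4N cells. The call in ZM447439 4N cells was lost on rescaling (adjusted p = 0.0538). NPM1 has many processed pseudogenes, and the sources used here do not say how reads matching several copies were counted.

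DDX21, an RNA helicase that binds ribosomal and small nucleolar RNA, was at 2.71, 2.62 and 2.51 RPKM in the cytochalasin D 4N, 3.25, 2.74 and 2.60 in the cytochalasin D 2N, 5.19, 5.44 and 5.36 in the ZM447439 4N, 5.94, 4.09 and 3.96 in the ZM447439 2N, 9.32, 8.99 and 9.79 in the untreated 4N and 10.7, 9.86 and 9.67 in the untreated 2N libraries. It was lowest under cytochalasin D and highest in untreated cells, with no overlap between treatments. Its log2 differences were -1.66 (SE 0.11, adjusted p = 5.83e-09) in cytochalasin D 4N, -1.66 (SE 0.11, adjusted p = 8.99e-09) in cytochalasin D 2N, -0.76 (SE 0.11, adjusted p = 4.36e-05) in ZM447439 4N and -1.06 (SE 0.11, adjusted p = 1.91e-06) in ZM447439 2N cells. NCL, which binds the nascent precursor, differed by -1.34 in cytochalasin D 4N and -0.64 in ZM447439 4N cells, and MYBBP1A, a nucleolar protein that binds MYB, by -0.94 and -0.34. All 4 of these differences passed the test.

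**Figure D3:**
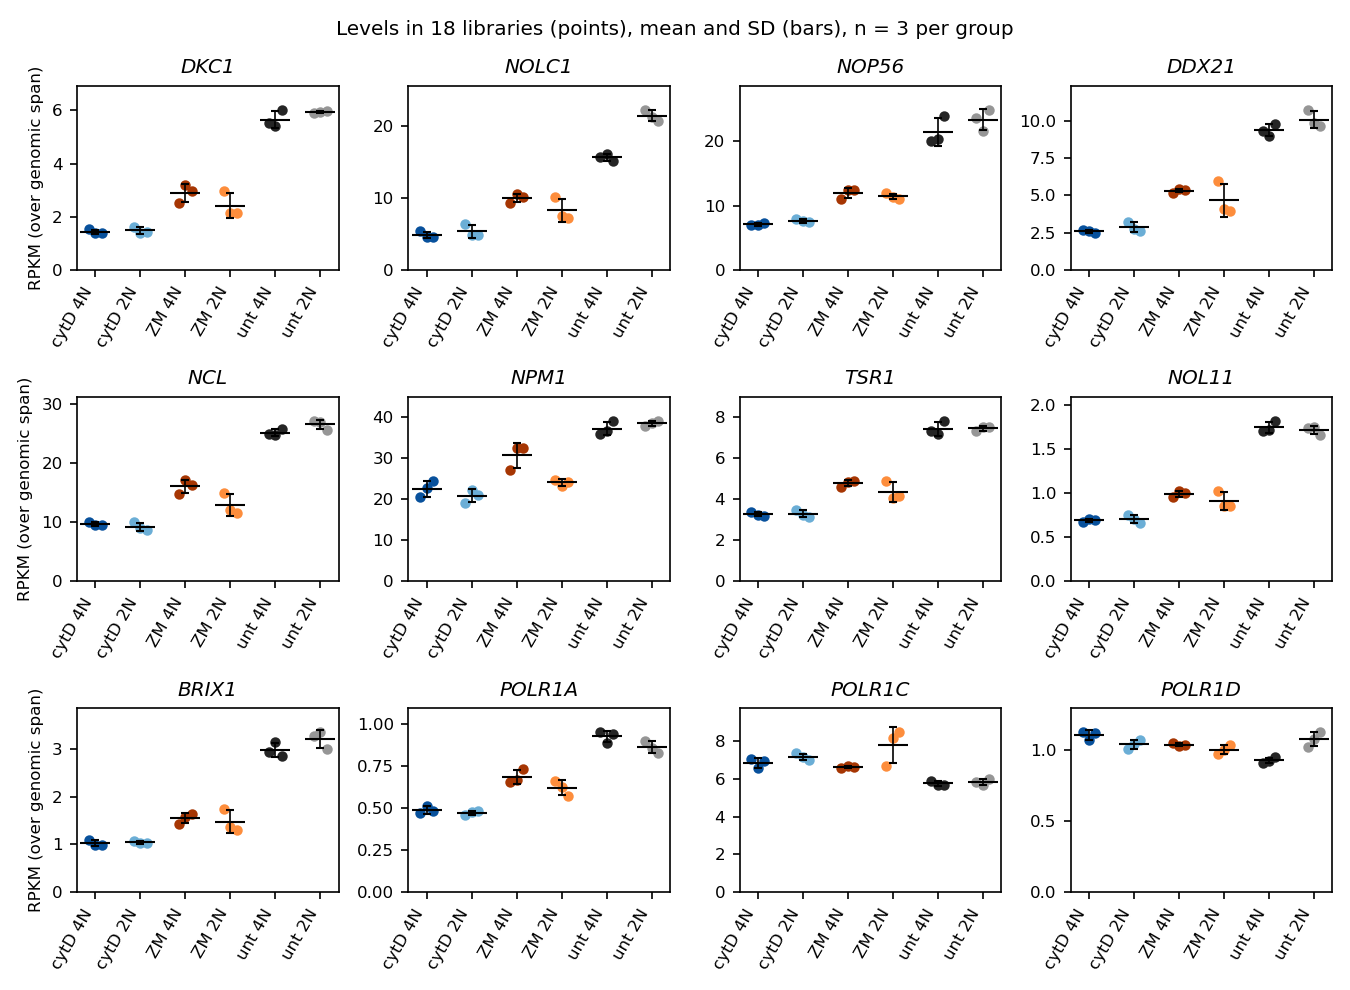
RPKM over the genomic span (y axes from 0) of 12 members in cytochalasin D, ZM447439 and untreated cells of the 4N and 2N sorts; points are libraries, bars the mean and SD of 3. In the first 10 panels the cytochalasin D groups are lowest and the untreated groups highest, POLR1C is higher in all drug-treated groups, and POLR1D is lowest in untreated 4N cells.

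The 0.5 added to RPKM compresses the differences of genes with low RPKM, and the length behind the values could be recovered, so all 40 members were also fitted as log2(RPM + 0.5) among 18454 genes. On that scale 38 of 40 fell in cytochalasin D 4N cells, where 42.4% of those genes fell and 32% rose, and 38 fell in cytochalasin D 2N cells, against 37.6% and 33.3%. In ZM447439 4N cells 32 fell, against 35.1% and 25%, and in ZM447439 2N cells 38, against 31.3% and 27.9%. The members that rose were again POLR1C and, in 4N cells, POLR1D.

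LYAR, a nucleolar zinc finger protein, had the largest fall of any member on this scale, and it is named after its values were seen. It was at 3.46, 3.05 and 2.98 RPM in the cytochalasin D 4N, 4.01, 2.45 and 2.91 in the cytochalasin D 2N, 7.30, 7.49 and 7.04 in the ZM447439 4N, 8.60, 4.16 and 4.46 in the ZM447439 2N, 24.3, 23.6 and 24.4 in the untreated 4N and 20.6, 21.0 and 16.9 in the untreated 2N libraries. Its cytochalasin D libraries were all below its ZM447439 libraries, which were all below its untreated libraries. Its mean RPM was 13.1% of untreated 4N in cytochalasin D 4N cells, with a log2 difference of -2.75 (SE 0.20, adjusted p = 5.09e-09), and 30.2% in ZM447439 4N cells, with -1.66 (SE 0.20, adjusted p = 3.69e-06). In the 2N sort it was 16.0% under cytochalasin D and 29.4% under ZM447439.

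The other 4 genes under the RPKM filter followed in different degree. UTP20, a large scaffold protein of the small subunit, differed by -1.13 in cytochalasin D 4N and -1.68 in cytochalasin D 2N cells. UTP4, of the UTPA subcomplex, differed by -1.17 and -1.24, and the helicase gene DDX10 by -1.27 and -0.89. WDR12 had the smallest falls, -0.29 in cytochalasin D 4N and -0.43 in cytochalasin D 2N cells, and its difference of -0.079 (SE 0.083, adjusted p = 0.432) in ZM447439 4N cells did not pass the test. By mean RPM, DKC1 stood at 25.4% of untreated 4N in cytochalasin D 4N cells, DDX21 at 27.9%, NOLC1 at 31.0% and NOP56 at 33.1%.

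The promoters of 6 members that hold a short motif near the start, chosen for holding it, are shown beside those of POLR1C and POLR1D, the members that rose. MYC with its partner MAX binds the letters CACGTG, a sequence that reads the same on both strands. In RefSeq promoter windows of GRCh38.p14, from 250 bases before to 50 after a transcript start, 16 of the 35 members with an entry (45.7%) held CACGTG in at least 1 window, against 2396 of all 27305 genes in that table (8.77%). Below are the last 60 bases before the start and the first 50 bases after it, in the direction of transcription, with CACGTG in capitals.
FBL chr19:39846330-39846439 (-): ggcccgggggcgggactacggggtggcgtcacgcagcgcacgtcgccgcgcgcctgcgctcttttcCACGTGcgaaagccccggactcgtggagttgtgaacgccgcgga
RRP9 chr3:51941855-51941964 (-): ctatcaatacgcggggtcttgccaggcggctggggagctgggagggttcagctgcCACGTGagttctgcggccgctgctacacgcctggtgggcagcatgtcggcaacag
NAT10 chr11:34105569-34105678 (+): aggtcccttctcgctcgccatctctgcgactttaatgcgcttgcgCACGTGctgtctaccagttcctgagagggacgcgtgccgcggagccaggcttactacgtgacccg
NOP2 chr12:6568242-6568351 (-): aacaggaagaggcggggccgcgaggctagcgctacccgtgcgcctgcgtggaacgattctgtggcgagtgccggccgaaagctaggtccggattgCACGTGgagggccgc
GNL3 chr3:52685972-52686081 (+): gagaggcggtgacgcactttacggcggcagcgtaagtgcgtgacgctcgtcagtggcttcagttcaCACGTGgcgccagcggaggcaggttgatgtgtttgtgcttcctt
DDX21 chr10:68956587-68956696 (+): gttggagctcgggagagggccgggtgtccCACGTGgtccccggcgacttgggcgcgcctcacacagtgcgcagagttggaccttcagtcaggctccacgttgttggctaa
POLR1C chr6:43517029-43517138 (+): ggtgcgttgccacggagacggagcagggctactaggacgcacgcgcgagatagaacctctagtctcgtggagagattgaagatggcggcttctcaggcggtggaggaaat
POLR1D chr13:27620683-27620792 (+): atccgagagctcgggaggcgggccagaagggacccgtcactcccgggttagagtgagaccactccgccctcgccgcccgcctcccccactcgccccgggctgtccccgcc
With the start as base 1, the motif began at base 7 in FBL and GNL3 and at base 36 in NOP2, and it began 5 bases before the start in RRP9, 15 before it in NAT10 and 31 before it in DDX21. Neither POLR1C nor POLR1D held these letters in any window, and neither did DKC1, NOP56 or NCL, which fell in all 4 comparisons, so members that fell were found with and without it. NAT10 and GNL3, which hold it, did not pass the test in ZM447439 4N cells. A match describes the sequence only and says nothing of binding in these cells.

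Whether the drugs differed from each other was asked within each sort, since their doses cannot be set side by side. Members were lower under cytochalasin D: 31 of 35 fell and 0 rose in cytochalasin D 4N against ZM447439 4N cells, where 27.8% of all tested genes fell and 15.7% rose. In cytochalasin D 2N against ZM447439 2N cells 26 fell and 0 rose, against 23.2% and 13.7% of all tested genes. The median differences were -0.36 in 4N and -0.30 in 2N cells, where all tested genes had medians of -0.055 and -0.041. The difference was negative in both sorts for 33 of the 35. Among all 40 on log2(RPM + 0.5), 37 fell in 4N cells, where 27.1% of those genes fell and 19.2% rose, and 30 fell in 2N cells, against 23.3% and 17.6%.

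Among the 35, the largest differences between the drugs in 4N cells were in genes of the box H/ACA particles and the helicase gene DDX21. The log2 difference in cytochalasin D 4N against ZM447439 4N cells was -0.98 (SE 0.12, adjusted p = 1.81e-05) for NOLC1, -0.91 (SE 0.11, adjusted p = 2.29e-05) for DDX21 and -0.81 (SE 0.094, adjusted p = 1.63e-05) for DKC1. NOL6 led the small subunit genes there with -0.76 (SE 0.078, adjusted p = 5.51e-06), NOP2 the large subunit genes with -0.65 (SE 0.069, adjusted p = 7.74e-06), NOP56 the box C/D genes with -0.71 (SE 0.071, adjusted p = 4.76e-06), WDR43 the UTPA genes with -0.43 (SE 0.070, adjusted p = 0.000211) and POLR1A the polymerase with -0.26 (SE 0.038, adjusted p = 0.000108).

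In 2N cells DDX21, NOLC1 and NOP56 led. The differences were -0.60 (SE 0.11, adjusted p = 0.000836) for DDX21, -0.58 (SE 0.12, adjusted p = 0.00148) for NOLC1, -0.55 (SE 0.071, adjusted p = 5.99e-05) for NOP56, -0.42 (SE 0.078, adjusted p = 0.000955) for NOL6, -0.40 (SE 0.060, adjusted p = 0.000179) for RRP1B, -0.21 (SE 0.038, adjusted p = 0.000966) for POLR1A and -0.23 (SE 0.070, adjusted p = 0.0192) for WDR43. On log2(RPM + 0.5) the value for LYAR was -1.09 (SE 0.20, adjusted p = 0.000395) in 4N and -0.74 (SE 0.20, adjusted p = 0.00798) in 2N cells. The call for WDR43 was lost without cytochalasin D 2N library 3 (adjusted p = 0.0654). POLR1C differed by 0.045 (SE 0.064, adjusted p = 0.599) in 4N and -0.10 (SE 0.064, adjusted p = 0.225) in 2N cells, with 95% intervals of -0.092 to 0.18 and -0.24 to 0.034.

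The sorts were then compared within each treatment. In untreated cells, where a G2/M marker list was highest in the 4N sort, 8 of the 35 members fell in 4N against 2N cells and 0 rose, where 4.55% of all tested genes fell and 12.9% rose. GNL3, nucleostemin, a nucleolar GTP-binding protein of dividing cells, was at 3.51, 2.85 and 2.75 RPKM in the cytochalasin D 4N, 3.60, 2.87 and 2.61 in the cytochalasin D 2N, 4.67, 5.44 and 5.41 in the ZM447439 4N, 4.88, 4.40 and 4.33 in the ZM447439 2N, 5.42, 5.53 and 4.89 in the untreated 4N and 8.23, 7.90 and 7.92 in the untreated 2N libraries. Its untreated 4N libraries were all below its untreated 2N libraries and overlapped the ZM447439 4N range. GNL3 differed by -0.56 (SE 0.10, adjusted p = 0.00118) in untreated 4N against 2N cells, NOLC1 by -0.44 (SE 0.12, adjusted p = 0.0164) and NOL6 by -0.35 (SE 0.078, adjusted p = 0.00566). NOP16, a large subunit factor, differed by -0.19 (SE 0.046, adjusted p = 0.00939), POLR1B by -0.15 (SE 0.044, adjusted p = 0.0316), RRP12 by -0.27, NAT10 by -0.17 and POLR1D by -0.14. Among all 40 on log2(RPM + 0.5), 9 fell and 1 rose, where 7.12% of those genes fell and 15.2% rose, and the one that rose was DDX10, at 0.42.

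These differences between untreated sorts depended on single libraries for some members. The call of NOLC1 was lost without untreated 2N library 1 or untreated 4N library 3 (adjusted p 0.0558 to 0.0582), and that of POLR1B without any of 5 of the 6 untreated libraries. With both untreated libraries numbered 3 left out 2 members were called in place of 8. The calls of NOLC1, NOL6, NOP16 and POLR1B were among those lost then (adjusted p 0.056 to 0.0983). Without all 6 libraries that stood apart 16 members were called, and after rescaling 13. GNL3 had the largest difference: its highest untreated 4N library had 5.53 and its lowest untreated 2N library 7.90 RPKM. The all-gene median was 0.036, that of the members -0.088.

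In cytochalasin D cells no member differed between 4N and 2N by limma, on log2(RPKM + 0.5) or on log2(RPM + 0.5), and neither did any of the 13037 genes (0% in each direction). At an unadjusted p under 0.05 there were 682 genes, 1 member among them. The members with the smallest unadjusted p were FBL, at 0.22 (SE 0.080, adjusted p = 0.814), and POLR1D, at 0.059 (SE 0.033, adjusted p = 0.994). The FBL libraries did not overlap between these sorts, with 3.84, 4.08 and 4.48 RPKM in cytochalasin D 4N and 3.45, 3.49 and 3.44 RPKM in cytochalasin D 2N cells. Without the 6 libraries that stood apart FBL was called, with a log2 difference of 0.27 and an adjusted p of 0.0127. The choice of those libraries from these data tends to lower that p.

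In ZM447439 cells 6 members rose in 4N against 2N cells and 0 fell, where 5.21% of all tested genes rose and 2.45% fell. NPM1 differed by 0.34 (SE 0.078, adjusted p = 0.0199), NCL by 0.32 (SE 0.084, adjusted p = 0.036), NHP2 by 0.27 (SE 0.065, adjusted p = 0.0225), NOL6 by 0.27 (SE 0.078, adjusted p = 0.0477) and NOP2 by 0.24 (SE 0.069, adjusted p = 0.0498), and NAT10 rose by 0.22. With the replicate number as a block, NCL (adjusted p = 0.0549), NOL6 (0.0834) and NOP2 (0.0698) were no longer called. With that block NPM1, NHP2 and NAT10 were called higher and POLR1C lower, at -0.21. Among all 40 on log2(RPM + 0.5), 8 rose and 0 fell, where 5.31% of those genes rose and 2.97% fell. The median of the 35 was 0.14, and that of all tested genes 0.0063.

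The result in ZM447439 cells rested on which libraries were used. Within pairs of the same number, RPM were higher in the 4N library for 39 of 40 members in pair 2 and for 37 in pair 3, with median log2 ratios of 0.339 and 0.341. In pair 1 they were higher for 7 and lower for 33, with a median of -0.078. Without ZM447439 2N library 1 the test called 21 of 35 members, 20 of them higher. Without both ZM447439 libraries numbered 1 it called 26, with 25 higher and 1 lower. Without ZM447439 2N library 2 or 3, or without ZM447439 4N library 2 or 3, it called 0, and without ZM447439 4N library 1 it called 11.

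**Figure D4:**
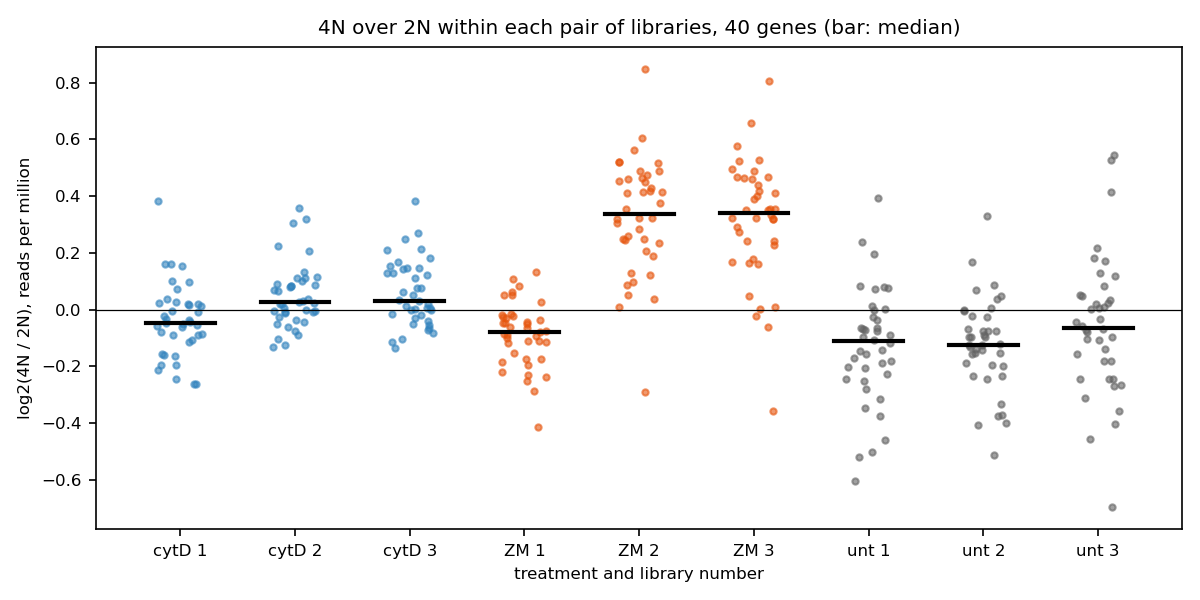
Log2 ratio of RPM in the 4N library over the 2N library of the same number, for 40 members (points) in 9 pairs (cytD, cytochalasin D; ZM, ZM447439; unt, untreated); bars are medians. ZM447439 pairs 2 and 3 lie mostly above 0 (medians 0.339 and 0.341), ZM447439 pair 1 and the 3 untreated pairs lie mostly below it (medians -0.123 to -0.063), and the cytochalasin D pairs lie around it.

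A test of the difference between differences asked whether the sorts were further apart, or the other way round, under a drug than without. For cytochalasin D, 3 members were called, all with a higher value, where 1.8% of all tested genes were called higher and 6.04% lower. They were GNL3 with 0.57 (SE 0.14, adjusted p = 0.0225), RRP12 with 0.27 (SE 0.077, adjusted p = 0.0437) and POLR1D with 0.20 (SE 0.047, adjusted p = 0.0154). The call of RRP12 was lost when any 1 of the 12 libraries was left out (adjusted p 0.0544 to 0.108) and with the replicate number as a block (0.0843). The call of GNL3 was lost without untreated 2N library 1, untreated 4N library 3 or cytochalasin D 2N library 2 or 3 (adjusted p 0.052 to 0.0577). Without both untreated libraries numbered 3 the test called 0 members, and without both cytochalasin D libraries numbered 1 it called 1. Among all 40 on log2(RPM + 0.5), 4 were called higher, where 2.66% of those genes were called higher and 6.79% lower.

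For ZM447439, 12 members were called, all with a higher value, where 3.52% of all tested genes were called higher and 6.58% lower. GNL3 had 0.73 (SE 0.14, adjusted p = 0.00509), NOLC1 0.71 (SE 0.16, adjusted p = 0.0139), NOL6 0.62 (SE 0.11, adjusted p = 0.003), NOP2 0.43 (SE 0.098, adjusted p = 0.0136), RRP9 0.35 (SE 0.091, adjusted p = 0.0275) and POLR1B 0.26 (SE 0.062, adjusted p = 0.0178). The call of RRP9 was lost without any 1 of 8 of the 12 libraries (adjusted p 0.0537 to 0.0754) and with only the groups compared in the fit (0.0598), and that of POLR1B without ZM447439 4N library 3 (0.0524). Each of these 6 had a negative 4N minus 2N difference in untreated cells and a positive one in ZM447439 cells, for GNL3 0.17 in ZM447439 and -0.56 in untreated cells, and for NOLC1 0.27 and -0.44. Among all 40 on log2(RPM + 0.5), 14 were called higher, where 4.62% of those genes were called higher and 8.08% lower. Without both ZM447439 libraries numbered 1 the test called 25 members, 24 of them higher, and without both untreated libraries numbered 3 it called 7.

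Other genes of the pathway were counted from a list of 103 ribosome biogenesis genes outside the members, of which 99 were found and 83 tested. In cytochalasin D 4N against untreated 4N cells 74 of the 83 fell and 1 rose, with a median log2 difference of -0.52. In cytochalasin D 2N cells 73 fell and 0 rose (-0.57), and in ZM447439 4N cells 67 fell and 1 rose (-0.30). In ZM447439 2N cells 69 fell and 0 rose (-0.41). Of all tested genes 44.4%, 39.5%, 35.5% and 32.5% fell in these comparisons, in the same order. The shares that rose were 26.1%, 27.1%, 19.6% and 23.6%. MRTO4, which assembles the stalk of the large subunit, had the largest value in all 4, -1.84 in cytochalasin D 4N and -1.06 in ZM447439 4N cells. RRP7A (-1.36) was next in cytochalasin D 4N, the polymerase subunit POLR1E (-1.43) in cytochalasin D 2N, UTP23 (-0.99) in ZM447439 4N and TCOF1, treacle (-1.12), in ZM447439 2N cells. The ones that rose were NOB1, the nuclease that finishes the small ribosomal RNA, by 0.25 in cytochalasin D 4N cells, and ZNF622, by 0.14 in ZM447439 4N cells, both named after their values were seen. The RNA exosome, which trims ribosomal precursors among other RNAs, fell in 12 of 12 tested genes in all 4 comparisons, led by EXOSC9 and EXOSC8 with -1.82 and -1.69 in cytochalasin D 4N and -1.22 and -1.20 in ZM447439 4N cells.

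MYC itself was at 13.9, 7.16 and 7.52 RPKM in the cytochalasin D 4N, 15.7, 7.98 and 8.96 in the cytochalasin D 2N, 13.1, 8.65 and 8.88 in the ZM447439 4N, 14.2, 8.03 and 9.04 in the ZM447439 2N, 18.2, 16.6 and 14.3 in the untreated 4N and 19.6, 17.5 and 14.7 in the untreated 2N libraries. In each drug-treated group library 1 was well above libraries 2 and 3, and in the 2N sort cytochalasin D library 1 lay inside the untreated range. MYC fell in cytochalasin D 4N cells, with -0.81 (SE 0.29, adjusted p = 0.0207), in cytochalasin D 2N cells, with -0.69 (SE 0.29, adjusted p = 0.0447), and in ZM447439 2N cells, with -0.73 (SE 0.29, adjusted p = 0.0412), and its difference in ZM447439 4N cells was -0.68 (SE 0.29, adjusted p = 0.0585). All 3 calls were lost on rescaling (adjusted p 0.0596 to 0.0869). Without the 6 libraries that stood apart the differences were -1.19 and -1.09 in cytochalasin D 4N and 2N cells. They were -0.95 and -1.08 in ZM447439 4N and 2N cells (adjusted p 2.69e-06 to 1.94e-05). Those 6 were chosen from these same data and include each drug-treated library 1, where MYC was highest. They also include untreated library 3 of both sorts, where MYC was lowest among the untreated libraries of its sort. Leaving out these 6 thus enlarges the differences as well as lowering the p-values. The fit without them therefore does not restore the calls. Its differences between sorts and between the drugs did not pass the test, with log2 values of -0.18 to 0.040. Of the 8 tested genes of the MYC network 2 rose and 5 fell in cytochalasin D 4N cells, where 26.1% of all tested genes rose and 44.4% fell. MXD4, an antagonist of MYC, rose by 1.84 in cytochalasin D 4N and by 1.75 in ZM447439 4N cells, and MXD3, of the same family, differed by -1.31 and -0.95. In the other drug comparisons 3 rose and 4 fell (cytochalasin D 2N), 2 rose and 3 fell (ZM447439 4N) and 2 rose and 3 fell (ZM447439 2N), to be read against the shares of all tested genes given above.

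Cell cycle genes moved with the drug groups. Of all tested genes 44.4% fell and 26.1% rose in cytochalasin D 4N cells, and 39.5% and 27.1% in cytochalasin D 2N cells. The shares were 35.5% and 19.6% in ZM447439 4N cells, and 32.5% and 23.6% in ZM447439 2N cells. All 14 genes of a G2/M list fell in all 4 drug comparisons, and their summed RPKM was 29.4 to 30.8 in cytochalasin D 4N, 11.2 to 20.4 in cytochalasin D 2N, 54.3 to 73.8 in ZM447439 4N and 16.5 to 36.0 in ZM447439 2N cells, against 376 to 401 in untreated 4N and 102 to 143 in untreated 2N cells. The largest values among them were those of CCNA2, cyclin A, at -3.87 and UBE2C at -3.78 in cytochalasin D 4N cells, and of UBE2C at -2.80 and PLK1 at -2.69 in ZM447439 4N cells. Of 13 tested G1/S genes, 12 fell in cytochalasin D 4N, 13 in cytochalasin D 2N, 11 in ZM447439 4N, where UNG rose by 0.33, and 13 in ZM447439 2N cells. RRM2, of ribonucleotide reductase, had the largest value in each, -3.97 in cytochalasin D 4N and -2.20 in ZM447439 4N cells. The summed RPKM of the 14 G1/S genes found, tested or not, was 16.2 to 20.8 over the cytochalasin D groups. It was 40.1 to 54.7 over the ZM447439 groups and 148 to 167 over the untreated groups. Of 8 tested p53 target genes 6 rose in cytochalasin D 4N, 5 in cytochalasin D 2N, 7 in ZM447439 4N and 3 in ZM447439 2N cells, and 0 fell. BTG2 and CDKN1A, which encodes p21, led with 1.95 and 1.79 in cytochalasin D 4N and 1.94 and 1.98 in ZM447439 4N cells. The untreated 4N cells had the highest G2/M sum and the cytochalasin D cells the lowest G1/S sum. The part of cell cycle position in the values of the ribosome biogenesis genes was not tested.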

How the data were processed

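The authors deposited 1 table of RPKM values for 57773 Ensembl identifiers in 18 libraries made from polyadenylated RNA with a kit that does not mark strand. Per the submitters' processing notes, the tools included CASAVA 1.8.2, TopHat2 and edgeR with hg19; their order, settings and the read counter are not given in the sources used here. Gene symbols were found for 52338 identifiers (90.6%). The members and gene lists were chosen with earlier results of these data known.

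The length behind the values was recovered from the steps between low values. Of 45103 genes above 0, 34449 (76.4%) gave whole reads within 0.01 reads with the GENCODE 29 genomic span, 7174 (15.9%) with a length inferred from the values, and for 3480 (7.7%) no length was found. Of the members, 28 had the annotated span and 12 an inferred length. Recovered reads were 49895547 to 78002810 per library; the library sizes implied by the values, over these reads, followed a TMM factor computed here within 1.66%.

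RPKM are not counts, so log2(RPKM + 0.5) of the 13037 genes that averaged 0.5 RPKM or more was fitted with limma 3.58.1 (R 4.3.3; trend, 1 mean per group, 12 residual degrees of freedom, prior 2.02). Tests were two-sided with Benjamini-Hochberg adjustment over all tested genes and a threshold of 0.05; the script was tested on simulated data. The log2(RPKM + 0.5) scale understates changes of low genes. An alternative used log2(RPM + 0.5) of 18454 genes averaging 1 or more. RPM are reads scaled to the library size implied by the values, which followed the TMM factor, and not to gene length. Other alternatives changed the added constant, the filter, the scaling, the libraries and the block. Same-numbered 2N and 4N libraries deviated together within each treatment (correlations of 0.26 to 0.63 under the drugs and 0.19 to 0.45 in untreated cells). Some of different number did so as much, with 0.31 and 0.39 for cytochalasin D libraries 2 and 3. The value was 0.32 for ZM447439 2N library 2 with 4N library 3, and 0.26 for untreated 2N library 1 with 4N library 2. The correlations thus do not settle the pairing. The numbers were taken as pairing the sorts in the block, and the main fit used no block. Members named in a comparison had the largest called difference of their role, 1 of the 3 largest of all members, or a direction against the majority; levels in all libraries are given for the member with the highest RPKM and the one with the largest difference in each role. The library levels of FBL, NOLC1, GNL3 and LYAR were added after their values were seen, and other members are given to account for each. Exon overlap and exon RPKM used GENCODE 29 exons, promoters the RefSeq table of GRCh38.p14; no coordinates were converted between builds.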

Additional observations from a re-analysis of the deposited data

Results flagged for a closer look

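The difference between 4N and 2N cells was not the same under a drug as without it for 15 values, tested as an interaction with limma and Benjamini-Hochberg adjustment. Under cytochalasin D the 4N minus 2N difference exceeded that in untreated cells by 0.57 on the log2 scale for GNL3, by 0.27 for RRP12 and by 0.20 for POLR1D. Under ZM447439 it exceeded that in untreated cells by 0.73 for GNL3, 0.71 for NOLC1 and 0.62 for NOL6. The excess was 0.43 for NOP2, 0.41 for RRP12 and for MYBBP1A, 0.39 for NAT10 and for NPM1, 0.35 for RRP9, 0.34 for RRP1B, 0.26 for POLR1B and 0.18 for POLR1D. All 15 values were positive. They share the untreated libraries, and the ZM447439 values changed in number with the libraries numbered 1, which had a 4N over 2N median of -0.078 over 40 members against 0.339 and 0.341 in the other pairs.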

How the results depend on the processing

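Counts of called members in the comparisons of drugs with untreated cells, and of the drugs in 4N cells, stayed within 1.5 times the values given under every alternative run, and no named member reversed. For cytochalasin D 2N against ZM447439 2N the count was 26, and 16 with only the groups compared in the fit. For untreated 4N against 2N (8) it was 13 after rescaling to an equal median ratio, 2 without both untreated libraries numbered 3, 16 without the 6 libraries that stood apart, and 5 to 7 without 1 library. For cytochalasin D 4N against 2N (0) it was 1 without those 6. For ZM447439 4N against 2N (6) it was 3 with no filter, 0 with only the groups compared, 26 without both ZM447439 libraries numbered 1, 31 without the 6, and 0 to 21 without 1 library. For the cytochalasin D interaction (3) it was 5 with 1 added to RPKM, after rescaling or after quantile normalization, 0 without both untreated libraries numbered 3, 1 without both cytochalasin D libraries numbered 1, 9 without the 6, and 1 to 3 without 1 library. For the ZM447439 interaction (12) it was 7 without both untreated libraries numbered 3, 25 without both ZM447439 libraries numbered 1, 30 without the 6, and 7 to 24 without 1 library. The cause of these changes was not tested beyond the removal of libraries itself. The 6 libraries were chosen from these same data for standing apart, so counts without them tend to be higher. In comparisons of drugs with untreated cells, leaving them out also sets untreated libraries 1 and 2 against drug-treated libraries 2 and 3, which deviated in opposite directions.

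With the replicate block the count was 4 for ZM447439 4N against 2N, 7 for untreated 4N against 2N and 2 for the cytochalasin D interaction. In comparisons of treatments the block was the library number over all treatments. Same-numbered libraries of different treatments did not always deviate together. Untreated 2N library 2 had a correlation of -0.09 with cytochalasin D 2N library 2 and of 0.16 with cytochalasin D 2N library 1. Little can therefore be drawn from the block in those comparisons. The block ended the calls of RRP12 in cytochalasin D 4N against untreated 4N cells and of NAT10 in untreated 4N against 2N cells, and added RRS1 in both comparisons of the drugs and GAR1 in that of 2N cells. Beside these and the calls given with the results for NOP2, NCL, NOL6, POLR1C and RRP12, it changed no other call of a member. For the 73 differences named by the rule, 885 values under other settings stayed on their side of the threshold, 42 lost a call and 1 gained one; with 1 library left out, 435 stayed and 57 lost a call. Changes of other members (RRP12, RRS1, NPM1) are given with their values. Members held at least 159 reads, at which counting error alone is 7.93%, and counting error and replicate spread were not separated.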
